A study of Mus musculus with 2 samples.

Results

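Small leucine-rich proteoglycans (SLRPs) are secreted proteins built around a run of leucine-rich repeats that dock onto collagen fibrils and set their width and spacing, and many of them also carry sulfated sugar chains. In the joint they are known from the matrix of tendon, cartilage, bone and loose connective tissue, and they are grouped into classes by their protein and gene structure. The 10 SLRP genes described here were chosen by name: the class I genes Dcn, Bgn and Aspn, the class II genes Fmod, Lum, Prelp, Kera and Omd, and the class III genes Epyc and Ogn. All 10 were among the 32245 gene columns of both tables.

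Transcripts were counted in single cells of knee joints of 1-month-old female mice, with 1 library per genotype. The control library was from Stat3fl/fl mice, in which both Stat3 alleles carry loxP sites and no Cre is present. The Stat3KO library was from mice labelled Acan-Cre+/Cre;Stat3fl/fl, which carry the same floxed alleles and Cre driven from the aggrecan locus, meant to delete Stat3 in chondrocytes. The study's methods describe a tamoxifen-inducible form of this Cre, used as 1 allele. Knees of 2 or 3 mice were pooled per genotype, and live cells without the blood and endothelial markers CD45, Ter119 and CD31 were sorted. With 1 pool per genotype there is no replicate spread, so no difference below was tested. There were 4903 cells in the control library, with a median depth of 4344 estimated UMIs (unique molecular identifiers, 1 per captured transcript), and 1340 cells in the Stat3KO library, with a median depth of 3743, or 2.36e+07 and 7.45e+06 estimated UMIs in all.

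The genes were profiled over 6 sets of cells. Chondrocytes were the 501 control and 332 Stat3KO cells that the authors marked in the tables. The other sets were gated from lists of 5 marker genes, none of them an SLRP gene, among cells not above 0 for both Sox9 and Col2a1: a cell needed at least 2 markers of a list and more of it than of any other list. This gave 324 control and 61 Stat3KO tendon cells (Tnmd, Scx, Mkx, Thbs4, Cilp2), 237 and 96 fibroblasts (Pi16, Dpp4, Clec3b, Cd248, Sema3c), 265 and 63 synovial lining cells (Prg4, Clic5, Tspan15, Htra4, Col22a1), 146 and 98 osteoblasts (Bglap, Ibsp, Sp7, Dmp1, Phex), and 177 and 136 marrow stromal cells (Adipoq, Lepr, Cxcl12, Kitl, Foxc1). In all, 1650 of 4903 control and 786 of 1340 Stat3KO cells fell in a set.

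Genes left out of the gates were read as a check of the names. Acan was at 4837 CPM (estimated UMIs of the summed cells of a set, scaled to 1000000) in control chondrocytes and at most 423 CPM in the other control sets. Col12a1 was highest in tendon cells, Col14a1 and Cd34 in fibroblasts, Hbegf in lining cells, Alpl in osteoblasts and Lpl in marrow stromal cells, in both libraries. For tendon cells 2 check genes did not follow the name: Col1a1 was higher in osteoblasts than in tendon cells, and Comp was slightly higher in chondrocytes (3016 CPM in the control library) than in tendon cells (2997 CPM). The cartilage collagen gene Col2a1 was at 2773 CPM in control tendon cells, against 49.8 to 450 CPM in the other gated control sets. In Stat3KO it was at 1265 CPM in tendon cells and 1391 CPM in osteoblasts. Whether this bears on the genes high in both tendon cells and chondrocytes was not tested. Lining cells were the least clean set, since 60.4% of control and 73.0% of Stat3KO lining cells also held at least 2 markers of another list, against 11.2% to 36.4% in the other sets. Globin transcripts were above 0 in 49.3% to 71.3% of the gated cells of each control set but in 0% to 6.62% of those in Stat3KO sets, and in no marked chondrocyte of either library. The libraries shared 2 cell barcodes.

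Stat3 itself was at 142 CPM in control and 103 CPM in Stat3KO chondrocytes, and at 98.6 to 158 CPM in control and 99.0 to 170 CPM in Stat3KO gated sets. The counted 3′ end may lie outside the deleted part, so this level does not check the deletion.

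The 10 genes lie in clusters of neighbours, apart from Bgn. On GRCm38 (Gencode M21 annotation), Dcn (chr10:97479609-97518143), Lum (chr10:97565128-97572703), Kera (chr10:97606879-97613692) and Epyc (chr10:97644068-97682454) follow each other on the plus strand of chromosome 10, separated by 47.0, 34.2 and 30.4 kb. Aspn (chr13:49544443-49567565), Omd (chr13:49582462-49592822) and Ogn (chr13:49608046-49624501) follow each other on the plus strand of chromosome 13, 14.9 and 15.2 kb apart. Prelp (chr1:133910304-133921414, minus strand) and Fmod (chr1:134037254-134048277, plus strand) lie 116 kb apart on chromosome 1, and Bgn (chrX:73483602-73495933, plus strand) is alone on chromosome X. Neighbours did not share 1 profile: the chromosome 10 cluster alone held a gene highest in tendon cells in both libraries (Dcn, Kera), another highest in osteoblasts (Lum) and another highest in chondrocytes (Epyc).

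Fmod and Epyc are the members whose highest set, tendon and cartilage respectively, stood at least 2-fold above the next set in both libraries and whose upstream sequence overlaps no annotated exon. The 250 bases before their annotated starts are printed as sequence bordering a gene highest in tendon cells and a gene highest in chondrocytes. Fmod was not confined to tendon cells, since it was also above 0 in 95.8% of control chondrocytes. Kera also met the 2-fold rule, by a wider margin than Fmod, but its window overlaps an annotated exon. The windows are from the first annotated start of each gene (RefSeq, GRCm38.p6, plus strand, Fmod at chr1:134037004-134037253 and Epyc at chr10:97643818-97644067). Capitals mark matches to the SOX-type letters ACAAAG or ACAATG and to the E-box letters CANNTG, on either strand.
Fmod: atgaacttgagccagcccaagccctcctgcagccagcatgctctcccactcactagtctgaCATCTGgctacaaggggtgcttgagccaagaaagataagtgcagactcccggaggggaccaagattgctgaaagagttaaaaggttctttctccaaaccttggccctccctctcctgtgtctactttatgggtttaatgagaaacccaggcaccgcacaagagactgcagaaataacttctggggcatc
Epyc: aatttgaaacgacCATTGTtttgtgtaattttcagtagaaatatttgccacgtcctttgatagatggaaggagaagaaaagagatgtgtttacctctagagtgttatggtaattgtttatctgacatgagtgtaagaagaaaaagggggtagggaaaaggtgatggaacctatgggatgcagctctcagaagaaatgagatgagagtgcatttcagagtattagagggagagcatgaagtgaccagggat
The Fmod window held 1 E-box match, starting 189 bases before the gene, and no SOX-type match, while the printed Epyc window held 1 SOX-type match, starting 237 bases before the gene, and no E-box match. A second annotated start of Epyc has a window of its own (chr10:97646853-97647102, not printed), which held 3 SOX-type and 2 E-box matches. Over all 32851 promoter windows of this length, 25.2% held a SOX-type match and 66.2% an E-box match. RefSeq windows were matched for 8 of the 10 genes.

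Tendon cells held the most SLRP transcripts. The 10 genes together made up 22889 CPM in control and 21515 CPM in Stat3KO tendon cells, 11425 and 13849 CPM in fibroblasts, and 8504 and 6578 CPM in chondrocytes. The other 3 sets lay between 5195 and 6924 CPM, the latter in Stat3KO osteoblasts, which thus lay above Stat3KO chondrocytes. After every cell was thinned to 1000 UMIs, a control tendon cell held a mean of 4.65 of the 10 genes and a Stat3KO tendon cell 4.15, against 3.29 and 2.75 in chondrocytes and 1.81 and 1.59 in lining cells, the lowest of the 6 sets.

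The genes that made up this total differed by tissue. Because 3′ UMIs count 1 per transcript whatever its length, the shares of the genes within a set can be compared without dividing by length. In control chondrocytes, Bgn made up 33.1% of SLRP transcripts, Fmod 27.4% and Prelp 20.0%, with Dcn at 9.84%. In control tendon cells Dcn led with 40.3%, followed by Fmod at 23.4%, and in control fibroblasts Dcn alone made up 56.2%. Control lining cells were made up almost wholly of Dcn (44.8%) and Bgn (40.0%), and control osteoblasts of Bgn (32.2%), Dcn (29.98%) and Lum (21.6%). Dcn took a larger share in the Stat3KO library in each of the 6 sets, from 9.84% to 23.1% in chondrocytes and from 56.2% to 69.6% in fibroblasts.

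**Figure D1:**
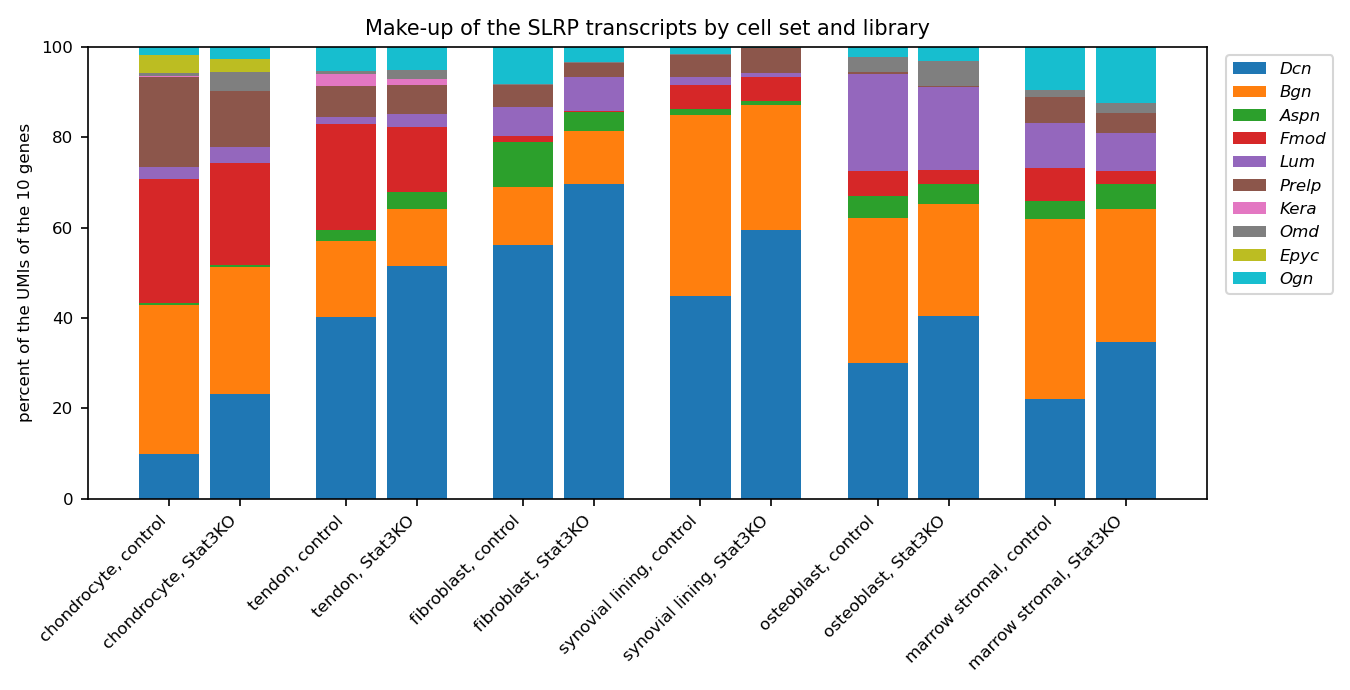
Stacked bars show the percent of the UMIs of the 10 SLRP genes taken by each gene, for each cell set and library. Dcn takes 9.84% of the control chondrocyte bar and 56.2% of the control fibroblast bar, and its part is larger in Stat3KO in all 6 sets.

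The set with the highest level was the same in both libraries for 7 of the 10 genes. Over the 9820 genes with at least 10 CPM in some set of each library, 49.2% had the same highest set. For 3 of the 10 genes, Fmod, Kera and Epyc, that set was also at least 2-fold above the next in both libraries, against 8.18% of the 9820 genes. These counts describe 2 libraries, and the order of sets with near levels has no replicate spread to read it against. For Fmod the lead was 2.30-fold in control and 2.06-fold in Stat3KO, where 3 cells gave 27.4% of its tendon UMIs. After thinning, its Stat3KO levels were 2833 CPM in tendon cells and 1434 CPM in chondrocytes, just short of 2-fold.

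**Figure D2:**
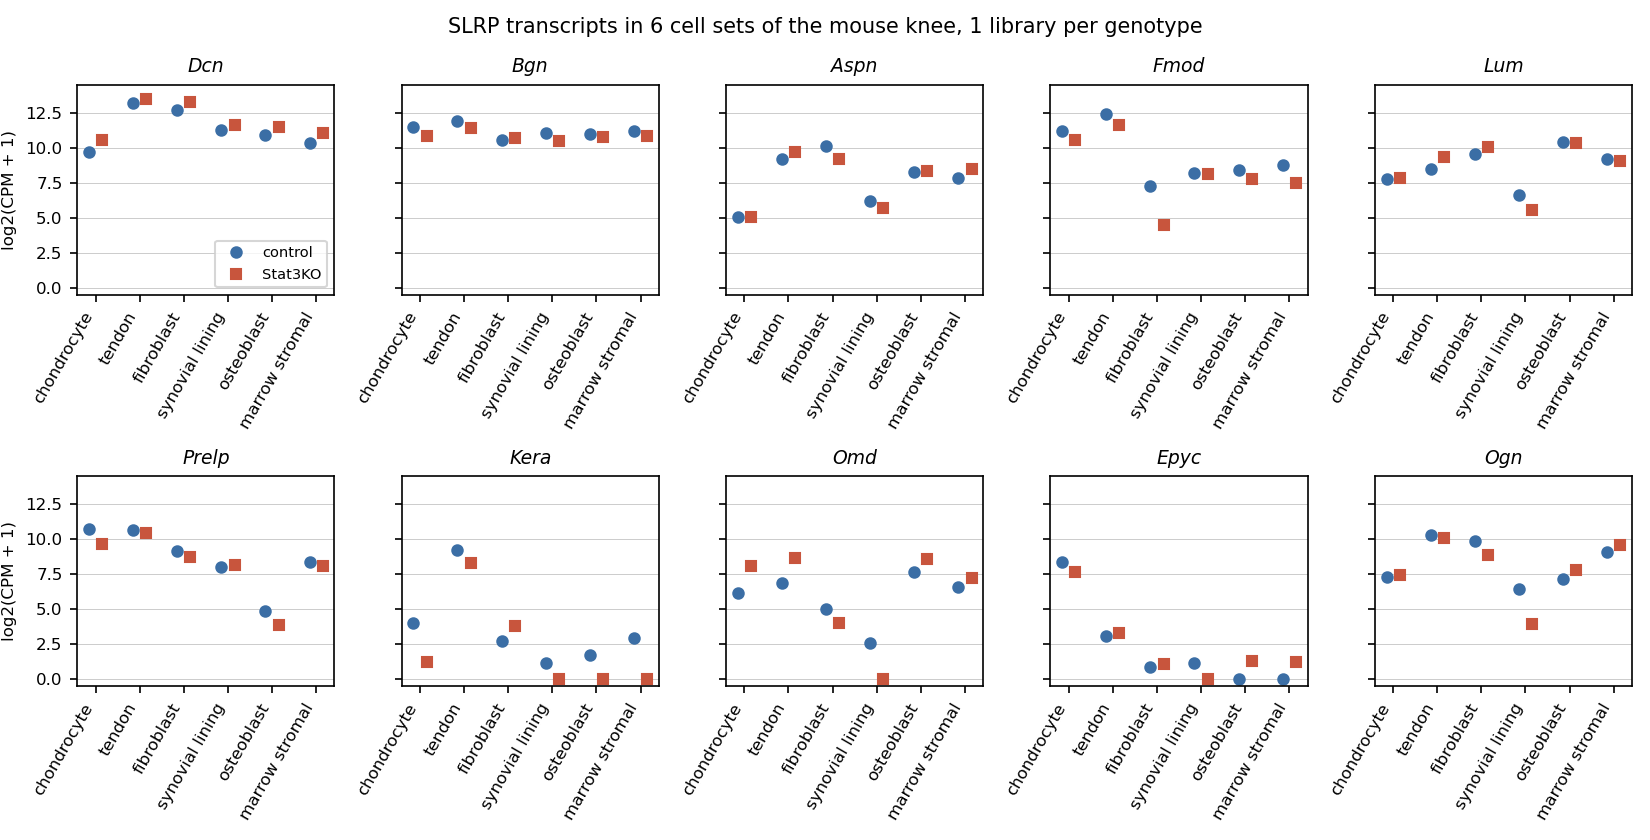
Each panel shows 1 SLRP gene as log2(CPM + 1) on the vertical axis in 6 cell sets, with circles for the control and squares for the Stat3KO library (1 library each, no error bar). Kera stands alone in tendon cells and Epyc in chondrocytes, while Bgn lies between 1435 and 3839 CPM in every set.

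Decorin (Dcn), a dermatan or chondroitin sulfate proteoglycan that binds collagen fibrils and limits their fusion, was at its highest in tendon cells and at its lowest in chondrocytes. It was at 9225 CPM in control and 11068 CPM in Stat3KO tendon cells, and at 6420 and 9638 CPM in fibroblasts. Lining cells held 2414 and 3089 CPM, osteoblasts 1878 and 2799 CPM, marrow stromal cells 1283 and 2157 CPM, and chondrocytes 837 and 1519 CPM. The order of the 6 sets was the same in both libraries. Dcn was above 0 in 98.7% of control fibroblasts (exact 95% interval 96.3% to 99.7%, counting error only) and in 66.5% of control chondrocytes (62.1% to 70.6%). Erythroid cells, which should lack these genes, had Dcn above 0 in 3.62% of 1602 control cells at a median of 5855 UMIs, a depth close to that of the control chondrocytes (5876 UMIs).

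Dcn was higher in the Stat3KO library in all 6 sets. The log2 ratio of Stat3KO to control, each CPM with 1 added, was 0.86 in chondrocytes, 0.75 in marrow stromal cells, 0.59 in fibroblasts, 0.58 in osteoblasts, 0.36 in lining cells and 0.26 in tendon cells. All of these lie below 2-fold. In tendon cells the sign turned under 4 of the 14 alternatives, to -0.38 without mixed cells, -0.05 with thinning, -0.01 with equal weight of cells and -0.0047 without the 3 top cells of each library. Of the Dcn UMIs in the 61 Stat3KO tendon cells, 3 cells gave 27.3%. The lining value turned to -0.95 when cells with markers of another list were left out, and to -0.21 without the 3 top cells. Of the Dcn UMIs in the 63 Stat3KO lining cells, 3 cells gave 44.2%. In chondrocytes the share of cells above 0 after thinning to 1000 UMIs was 34.1% in control and 43.4% in Stat3KO. The chondrocyte ratio was 0.90 without mixed cells and 0.46 with every Sox9 and Col2a1 cell counted as a chondrocyte. It kept its sign under all 14 alternatives, of which 0.46 was the lowest.

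Biglycan (Bgn), the closest relative of decorin and abundant in cartilage and bone, had the flattest profile. It was at 3839 CPM in control and 2744 CPM in Stat3KO tendon cells, 2819 and 1850 CPM in chondrocytes, and 2312 and 1816 CPM in marrow stromal cells. Osteoblasts held 2014 and 1712 CPM, lining cells 2155 and 1435 CPM, and fibroblasts 1474 and 1625 CPM. The highest set was thus 2.60-fold above the lowest in the control and 1.91-fold in the Stat3KO library, against 11.02-fold and 7.29-fold for Dcn. Bgn was lower in Stat3KO in chondrocytes (log2 ratio -0.61), tendon cells (-0.48), lining cells (-0.59), osteoblasts (-0.23) and marrow stromal cells (-0.35), and higher in fibroblasts (0.14). The chondrocyte value kept its sign under all 14 alternatives, from -0.80 to -0.45.

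Asporin (Aspn), which carries a stretch of aspartates and no sugar chain of the decorin type, was a gene of fibrous tissue. It was at 1126 CPM in control and 590 CPM in Stat3KO fibroblasts, and at 577 and 806 CPM in tendon cells, so that the highest set changed between the libraries. Osteoblasts held 309 and 316 CPM, marrow stromal cells 224 and 355 CPM, lining cells 72.0 and 50.5 CPM, and chondrocytes 32.7 and 31.7 CPM. The share of chondrocytes above 0 in the control, 5.79% (3.91% to 8.21%), overlapped that in erythroid cells, 4.18% (3.26% to 5.28%), so over all marked chondrocytes the share could not be told from background, while the level in erythroid cells was 6.17 CPM. The tendon values changed order without the 3 top cells, where the log2 ratio was -0.05 in place of 0.48, and in cells without globin, where it was -0.08. They also did so in cells with at most 5% mitochondrial transcripts and 24000 counts, where the ratio was -0.35. The fibroblast ratio, -0.93, ranged from -1.21 to -0.82 over the alternatives.

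Fibromodulin (Fmod), a keratan sulfate proteoglycan that binds collagen and is known from tendon and cartilage, separated those tissues from the others. It was at 5361 CPM in control and 3069 CPM in Stat3KO tendon cells and at 2331 and 1489 CPM in chondrocytes. Marrow stromal cells held 427 and 173 CPM, osteoblasts 338 and 217 CPM, lining cells 290 and 279 CPM, and fibroblasts 151 and 20.9 CPM. Fmod was above 0 in 95.1% of control tendon cells (92.1% to 97.2%) and 95.8% of control chondrocytes (93.7% to 97.4%), but in 17.3% of control fibroblasts (12.7% to 22.7%), although Dcn was above 0 in 96.6% of control tendon cells and 98.7% of control fibroblasts. Erythroid cells had Fmod above 0 in 3.56% of control cells.

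Fmod was lower in the Stat3KO library in all 6 sets, with log2 ratios of -0.65 in chondrocytes, -0.80 in tendon cells, -2.80 in fibroblasts, -0.06 in lining cells, -0.64 in osteoblasts and -1.29 in marrow stromal cells. The chondrocyte and tendon values kept their sign under all alternatives, from -0.84 to -0.49 and from -1.14 to -0.64. The fibroblast value did not: 3 control fibroblasts gave 60.7% of the UMIs, and in cells without globin the ratio was 0.16. The lining value had no steady direction, from -1.39 to 0.97, with its sign kept under 9 of 14 alternatives. In Stat3KO only 8 lining cells were above 0 for Fmod, and 3 of them gave 73.5% of the UMIs. Thinned to 1000 UMIs, 80.8% of control and 59.1% of Stat3KO chondrocytes were above 0 for Fmod.

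Lumican (Lum), a keratan sulfate proteoglycan best known from the cornea, was highest in osteoblasts. It was at 1350 CPM in control and 1274 CPM in Stat3KO osteoblasts, followed by fibroblasts with 729 and 1066 CPM. Marrow stromal cells held 584 and 520 CPM, tendon cells 356 and 648 CPM, chondrocytes 220 and 230 CPM, and lining cells 99.2 and 46.5 CPM. In osteoblasts and chondrocytes the libraries were close, with log2 ratios of -0.08 and 0.06. The chondrocyte value depended on mixed cells, since without them it was -0.55. The tendon difference, 0.86, turned to -0.22 without the 3 top cells, which gave 63.6% of the Stat3KO UMIs. The lining ratio of -1.08 rested on 118 and 26 estimated UMIs and was 0.0026 without mixed cells.

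Prelp, whose basic N-terminal region binds heparin-type chains, was highest in chondrocytes and tendon cells and lowest in osteoblasts. It was at 1698 CPM in control and 813 CPM in Stat3KO chondrocytes, and at 1573 and 1365 CPM in tendon cells. Fibroblasts held 554 and 418 CPM, marrow stromal cells 323 and 268 CPM, lining cells 259 and 280 CPM, and osteoblasts 28.1 and 13.4 CPM. The order of chondrocytes and tendon cells thus changed between the libraries. Chondrocytes were 1.08-fold above tendon cells in the control, and tendon cells were 1.68-fold above chondrocytes in Stat3KO. In osteoblasts Prelp was above 0 in 17.8% of control and 6.12% of Stat3KO cells, against 2.56% of control erythroid cells. The 26 control osteoblasts above 0 held 18.9 estimated UMIs, and after thinning the shares were close, 4.93% in control and 4.44% in Stat3KO.

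In chondrocytes the log2 ratio of Prelp was -1.06, past 2-fold, and it kept its sign under all 14 alternatives, from -1.12 to -0.85. It stayed past 2-fold under 11 of them. The share of chondrocytes above 0 was 88.4% in control and 75.6% in Stat3KO, and 63.7% and 39.4% after thinning, although the Stat3KO cells were the deeper ones (medians of 5876 and 8595 UMIs).

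Keratocan (Kera), a keratan sulfate proteoglycan named for the cornea, was found almost wholly in tendon cells. It was at 603 CPM in control and 310 CPM in Stat3KO tendon cells, and at 15.5 CPM or less in each other set. The tendon level was 38.9-fold above the next set in the control and 24.0-fold in the Stat3KO library. In the control, 46.0% of tendon cells (40.5% to 51.6%) were above 0, against 1.20% of chondrocytes, 1.69% of fibroblasts and 0.312% of erythroid cells. No Stat3KO lining cell, osteoblast or marrow stromal cell was above 0, which allows shares of up to 4.76%, 3.06% and 2.21%.

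In tendon cells 23.0% of the Stat3KO cells (13.2% to 35.5%) were above 0 for Kera, and after thinning 29.7% of control and 10.0% of Stat3KO cells were. The log2 ratio was -0.96, ranging from -2.26 without mixed cells to -0.65 over the alternatives. The chondrocyte ratio of -2.84 rested on 6 control cells, of which 3 gave 84.2% of 48 estimated UMIs, and on 1 Stat3KO cell. The fibroblast ratio, 1.06, rested on 4 control and 3 Stat3KO cells.

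Osteomodulin (Omd, also called osteoadherin), a keratan sulfate proteoglycan of bone matrix, was highest in osteoblasts of the control. It was at 200 CPM in control and 373 CPM in Stat3KO osteoblasts, at 118 and 404 CPM in tendon cells, and at 69.2 and 274 CPM in chondrocytes. Marrow stromal cells held 92.5 and 149 CPM, fibroblasts 31.4 and 15.2 CPM, and lining cells 4.95 and 0 CPM, where no count in 63 cells allows a share of up to 4.76%. The highest set was therefore osteoblast in the control and tendon in the Stat3KO library, where the leading levels differed by 1.08-fold.

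Omd had the highest log2 ratio of the 10 genes in chondrocytes, with 1.97, and in tendon cells, with 1.77. In chondrocytes it was above 0 in 16.6% of control (13.4% to 20.1%) and 40.1% of Stat3KO cells (34.7% to 45.6%), and in 6.12% and 14.7% after thinning, against 1.81% of control erythroid cells. The chondrocyte ratio was past 2-fold under all 14 alternatives, from 1.58 with every Sox9 and Col2a1 cell counted as a chondrocyte to 2.13. Marked chondrocytes with at least 2 osteoblast markers made up 2.99% of control and 10.5% of Stat3KO cells. Without cells holding markers of another list the ratio was 1.90, nearly as large as with them. In tendon cells 3 cells gave 58.0% of the Stat3KO UMIs, and without the top 3 the ratio was 0.93.

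Epiphycan (Epyc), a dermatan sulfate proteoglycan named for the epiphysis, was a cartilage gene. It was at 323 CPM in control and 197 CPM in Stat3KO chondrocytes, at 7.61 and 9.06 CPM in tendon cells, and at 1.44 CPM or less elsewhere. The chondrocyte level was 42.5-fold above the next set in the control and 21.7-fold in the Stat3KO library. Epyc was above 0 in 52.5% of control chondrocytes (48.0% to 56.9%) and 32.8% of Stat3KO ones (27.8% to 38.2%), and in 21.2% and 10.9% after thinning, against 0.999% of control erythroid cells. The log2 ratio was -0.71 and kept its sign under all alternatives, from -0.89 to -0.32.

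Osteoglycin (Ogn, also called mimecan), the other class III gene, was highest in tendon cells. It was at 1229 CPM in control and 1094 CPM in Stat3KO tendon cells, at 933 and 462 CPM in fibroblasts, and at 548 and 763 CPM in marrow stromal cells. Chondrocytes held 159 and 173 CPM, osteoblasts 143 and 218 CPM, and lining cells 87.8 and 14.4 CPM. Ogn thus stood against Epyc, the gene of its own class, whose transcripts were nearly all in chondrocytes. It was above 0 in 62.7% of control and 66.9% of Stat3KO marrow stromal cells. The lining ratio of -2.53 compared 105 with 8 estimated UMIs, and it stayed past 2-fold under all 14 alternatives. The fibroblast ratio was -1.01 and stayed past 2-fold under 8 of 14.

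Read across the 6 sets, 51 gene and set pairs had at least 10 CPM in either library, and 12 of these differed by at least 2-fold between the libraries. In chondrocytes 1 of 10 genes was at least 2-fold higher in Stat3KO (Omd), against 4.57% of the 8117 genes past the same minimum, and 2 were lower (Prelp and Kera), against 6.63%. In tendon cells 1 of 9 was higher (Omd), against 9.64%, and none was lower, against 15.4%. In fibroblasts 1 of 9 was higher (Kera), against 6.85%, and 3 were lower (Fmod, Omd and Ogn), against 13.4%. In lining cells none of 7 was higher, against 7.83%, and 2 were lower (Lum and Ogn), against 10.2%. In osteoblasts none of 8 was higher, against 6.31%, and 1 was lower (Prelp), against 17.6%. In marrow stromal cells none of 8 was higher, against 7.36%, and 1 was lower (Fmod), against 15.2%.

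The 10 genes did not share 1 direction. Their median log2 ratio was -0.33 in chondrocytes, where that of all genes past the minimum was -0.18, and -0.17 in tendon cells (all genes -0.11). It was -0.41 in fibroblasts (-0.15), -0.50 in lining cells (-0.08), -0.03 in osteoblasts (-0.28) and 0.15 in marrow stromal cells (-0.19). Among genes that reached 10 CPM in both, medians lay between -0.22 and -0.04, and centring on these gave 5 ratios at least 2-fold higher and 5 lower, in place of 3 and 9. The signs named above for Dcn and Fmod are without centring. With centring, Fmod in lining cells was at 0.0058, the only set in which centring changed the sign of either gene.

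**Figure D3:**
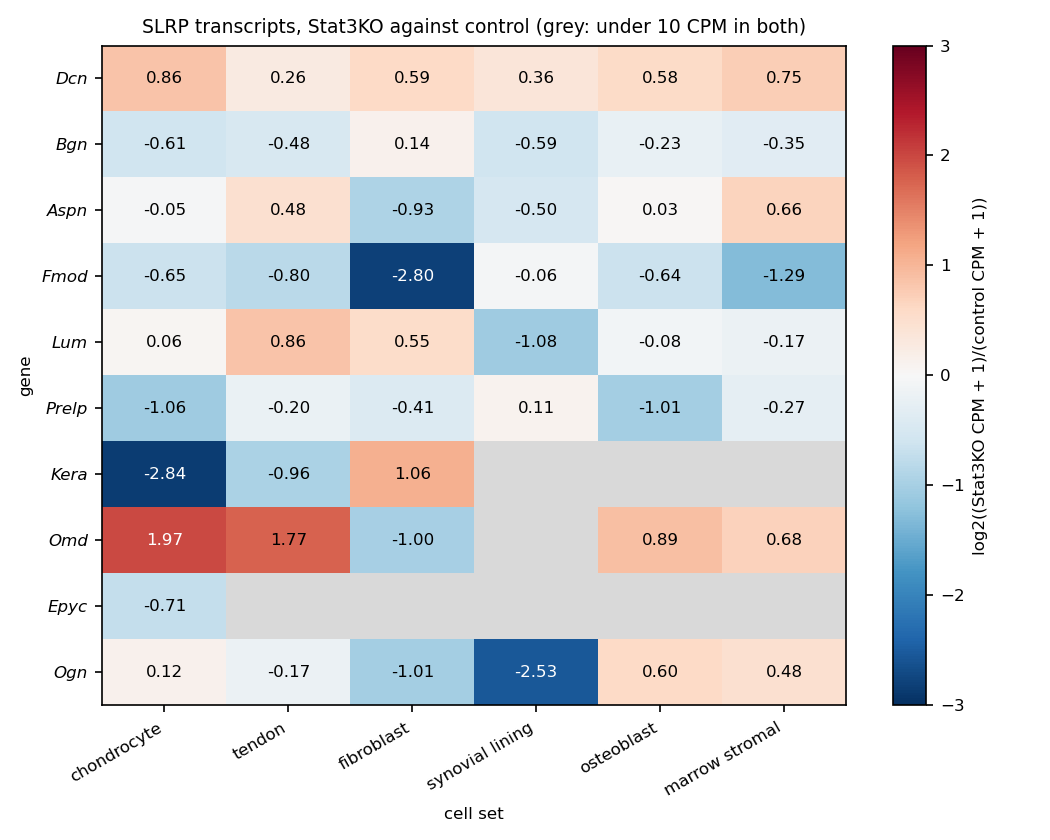
The grid gives log2((Stat3KO CPM + 1)/(control CPM + 1)) of each SLRP gene (rows) in each cell set (columns), red for higher and blue for lower in Stat3KO, grey where both libraries were under 10 CPM. Dcn is above 0 and Fmod below 0 in all 6 columns, and Omd reaches 1.97 in chondrocytes.

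Cartilage of the knee at this age holds both articular cartilage at the joint surface and growth cartilage, so the marked chondrocytes were split by lists of 8 markers each, with no SLRP gene among them. Articular-type cells (such as Prg4, Cytl1, Creb5, Erg) numbered 60 in control and 42 in Stat3KO, growth-cartilage-type cells (such as Matn1, Fgfr3, Ucma, Ihh) 415 and 227, and 26 and 63 cells fell in neither. Cells of neither type thus made up 5.19% of control and 19.0% of Stat3KO chondrocytes.

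Dcn and Epyc parted these subsets in opposite directions. Dcn was at 4255 CPM in control and 8087 CPM in Stat3KO articular-type cells, but at 476 and 714 CPM in growth-cartilage-type cells. Epyc was at 364 and 246 CPM in growth-cartilage-type cells, against 3.69 and 0 CPM in articular-type cells, where 1 of 60 control cells and none of 42 Stat3KO cells were above 0, the latter allowing a share of up to 7.14%. Within a library the Dcn log2 difference was 3.16 in control and 3.50 in Stat3KO. Of the Dcn UMIs in articular-type cells, 3 cells gave 30.6% in control and 49.8% in Stat3KO.

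Ogn and Aspn followed Dcn. Ogn was at 544 and 387 CPM in articular-type cells and at 112 and 133 CPM in growth-cartilage-type cells, and Aspn at 97.9 and 163 CPM against 18.4 and 17.8 CPM. Aspn was above 0 in 15.0% of control articular-type cells (7.10% to 26.6%). Of its UMIs in articular-type cells, 3 cells gave 79.3% in control and 80.0% in Stat3KO. Kera was at 152 and 16.3 CPM in articular-type cells, from 4 control cells and 1 Stat3KO cell. Bgn (4064 and 2207 CPM in articular-type, 2704 and 1804 CPM in growth-cartilage-type cells), Lum (200 and 263 CPM against 205 and 193 CPM) and Prelp (1515 and 1004 CPM against 1755 and 877 CPM) differed by less than 2-fold between the subsets, as did Fmod (3914 and 1949 CPM against 2166 and 1479 CPM).

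**Figure D4:**
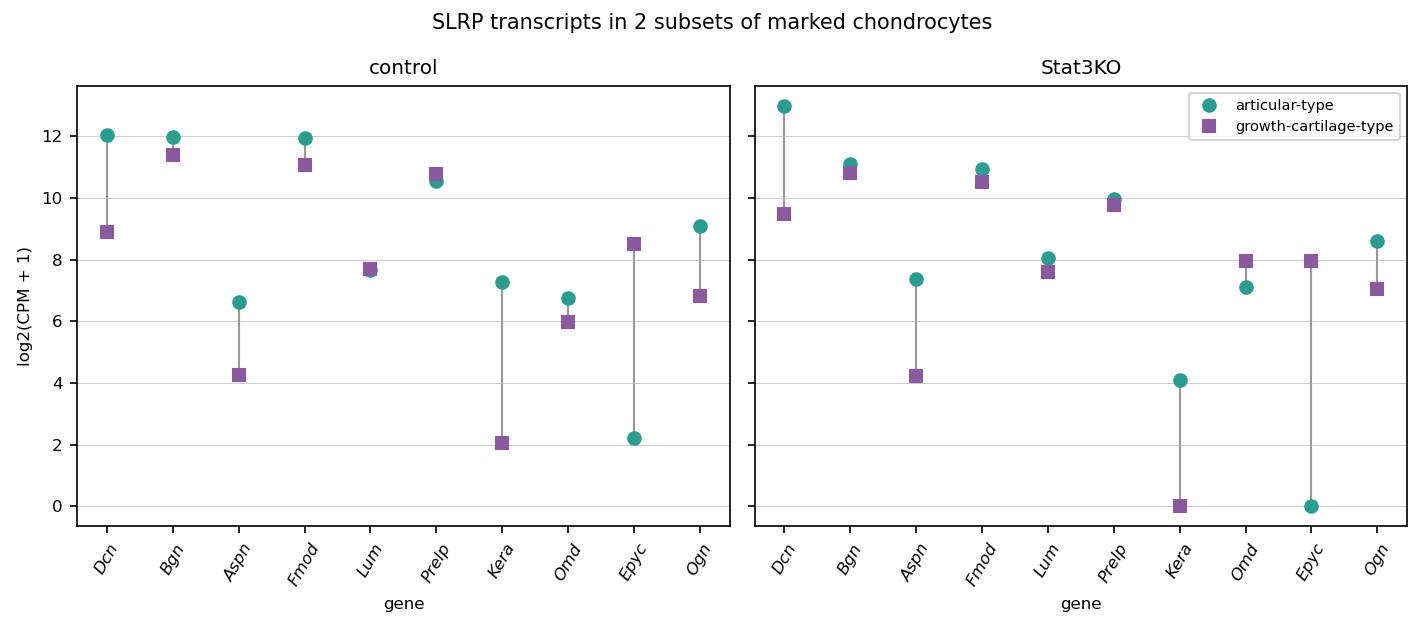
Circles show log2(CPM + 1) of each SLRP gene in articular-type and squares in growth-cartilage-type marked chondrocytes, in the control (left) and Stat3KO (right) libraries. Dcn lies at 4255 and 8087 CPM in articular-type cells, while Epyc is at 3.69 and 0 CPM there and at 364 and 246 CPM in growth-cartilage-type cells.

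Several differences between the libraries had the same direction in both subsets: Dcn was higher in Stat3KO in each, and Bgn, Fmod and Prelp were lower in each. The Dcn difference in growth-cartilage-type cells was smaller without cells holding at least 2 osteoblast markers. It was then at 475 CPM in control and 563 CPM in Stat3KO, against 476 and 714 CPM with those cells. Epyc was lower in growth-cartilage-type cells, and in articular-type cells it was too rare to compare. Omd was uneven, since it was at 61.8 CPM in control and 245 CPM in Stat3KO growth-cartilage-type cells, but at 108 and 138 CPM in articular-type cells. In the cells of neither type it was at 184 and 548 CPM, from 4 of 26 and 25 of 63 cells. Without cells holding at least 2 osteoblast markers, growth-cartilage-type cells were at 62.8 and 215 CPM. The difference between the subsets was not tested. Lum in growth-cartilage-type cells was at 199 CPM in control and 112 CPM in Stat3KO without the cells holding at least 2 osteoblast markers. With those cells it was at 205 and 193 CPM.

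The profiles of the genes over the 12 combinations of set and library can be set side by side as correlations of log2(CPM + 1), which share cells and depth within each combination and are given as descriptions. Among the 10 genes Bgn was most like Fmod (r = 0.80), Aspn most like Ogn (0.76), and Aspn least like Epyc (-0.51). Adjacent genes on chromosome 10 were weakly alike, with r = 0.25 for Dcn and Lum, 0.17 for Lum and Kera and 0.26 for Kera and Epyc. The other pairs of that cluster ranged from -0.30 (Dcn and Epyc) to 0.58 (Dcn and Kera). On chromosome 13 r was 0.31 for Aspn and Omd and 0.62 for Omd and Ogn, and Aspn and Ogn lie in the same cluster. For Prelp and Fmod on chromosome 1 it was 0.49.

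Among 4045 genes with at least 50 CPM in some set of each library, the profile most like that of Epyc was Cnmd (chondromodulin, r = 0.98), followed by Matn3 (matrilin 3, 0.98) and Il17b (0.95). For Kera these were Cpxm2 (0.98), Foxp4 (0.93) and Itgbl1 (0.91), and for Fmod Fibin (0.96), the family member Chad (0.93) and Ecrg4 (0.90). For Dcn the most alike were Ifitm2, Rasl11b and Mtch1 (0.87 each), and for Bgn Pole3 (0.92), Crispld2 (0.87) and Rflnb (0.86). For Aspn they were Svil (0.95), Itga11 (0.94) and Mfap2 (0.94), for Lum Plat (0.91), Pcsk5 (0.91) and Postn (0.89), and for Prelp Meg3, Trabd2b (0.93 each) and Syne1 (0.92). Omd was most like Maged1, Hoxc9 and Mpzl1 (0.89 each) and Ogn had Csrp2 (0.94) and Calhm5 (0.93) among its most alike genes.

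Of 8 other genes of the leucine-rich proteoglycan family, Chad (chondroadherin, a cartilage matrix protein) was the most abundant. It was at 2289 CPM in control and 1176 CPM in Stat3KO tendon cells and at 1026 and 1542 CPM in chondrocytes, so it was lower in the Stat3KO library in the former (log2 ratio -0.96) and higher in the latter (0.59). Ecm2, next to Aspn on chromosome 13, was highest in tendon cells, with 549 and 282 CPM. Chadl was a chondrocyte gene, with 124 and 176 CPM against at most 17.1 CPM in the other sets. Podn was highest in fibroblasts (109 and 93.3 CPM) and Podnl1 in marrow stromal cells (92.2 and 43.9 CPM). Tsku stayed at 13.1 CPM or less, Optc at 7.89 CPM or less and Nyx at 3.01 CPM or less in every set. In marrow stromal cells 4 of the 5 genes past the minimum were at least 2-fold lower in Stat3KO (Ecm2, Chad, Podnl1 and Tsku), against 15.2% of all genes. With centring, Ecm2 (-0.97), Chad (-0.98) and Podnl1 (-0.93) were no longer past 2-fold. Tsku stayed past it, but its levels of 12.4 and 1.37 CPM lay near the minimum. In osteoblasts 1 of 5 was higher (Chadl, 6.74 and 17.1 CPM), against 6.31%, and 1 lower (Podnl1, 51.5 and 11.7 CPM), against 17.6%. Genes of this list were also lower in chondrocytes (Podnl1, 11.4 and 4.86 CPM, 1 of 4 against 6.63%), in fibroblasts (Chad, 49.9 and 17.3 CPM, 1 of 4 against 13.4%) and in lining cells (Podn, 12.2 and 3.60 CPM, 1 of 3 against 10.2%).

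The enzymes that build the chondroitin and dermatan sulfate chains of decorin, biglycan and epiphycan were mostly low. Of 11 genes, 7 to 9 passed the minimum in a set. At least 2-fold higher in Stat3KO were none in chondrocytes and tendon cells, 1 each in fibroblasts, lining cells and osteoblasts, and 2 in marrow stromal cells, and at least 2-fold lower were 1, 2, 0, 0, 0 and 1 in the same order. Over all genes the shares were 4.57% to 9.64% higher and 6.63% to 17.6% lower, by set. Chst11, a chondroitin 4-O-sulfotransferase, was highest in chondrocytes, with 571 and 421 CPM, as was Xylt1, which starts the chain, with 317 and 263 CPM. Csgalnact1, which commits it to chondroitin sulfate, was at 115 and 54.7 CPM in chondrocytes and at 14.3 and 40.0 CPM in fibroblasts. Of the other genes past 2-fold, B4galt7 was higher in lining cells (7.89 and 21.6 CPM), Chst11 in osteoblasts (30.9 and 62.9 CPM), and B3galt6 (6.997 and 19.1 CPM) and Chst14 (7.02 and 16.4 CPM) in marrow stromal cells. Chst11 (22.8 and 8.31 CPM) and Xylt1 (61.8 and 29.7 CPM) were lower in tendon cells, and Xylt1 in marrow stromal cells (31.3 and 13.1 CPM). Dse, the epimerase that makes dermatan sulfate, was highest in marrow stromal cells in the control (88.3 CPM) and in tendon cells in Stat3KO (84.1 CPM).

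Of 6 genes for the keratan sulfate chains carried by fibromodulin, lumican and keratocan, B4galt1 passed the minimum in all 6 sets, Chst2 in 5 and Chst1 in 4. Chst2 was highest in lining cells in both libraries, with 233 and 245 CPM, a set low in Fmod and Lum. Chst5 was at 7.58 and 18.0 CPM in tendon cells. The list had 1 gene at least 2-fold higher in tendon cells (Chst5) and in lining cells (Chst1, 0.708 and 10.8 CPM), and 1 lower in fibroblasts (Chst1, 14.8 and 5.74 CPM) and in osteoblasts (Chst2, 15.8 and 7.25 CPM), of 2 or 3 genes past the minimum in a set and against the same shares over all genes.

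The collagens to which these proteoglycans bind, with the enzymes that cross-link them, were lower in the Stat3KO library in tendon cells, where 5 of 10 genes were past 2-fold, against 15.4% of all genes. These were Col1a1 (45060 and 18474 CPM), Col1a2 (42353 and 14961 CPM), Col2a1, Col11a1 and Loxl2. Tendon Col1a2 thus had a log2 ratio of -1.50, while Dcn in the same cells had 0.26 and Fmod -0.80. In fibroblasts 3 of 10 were at least 2-fold lower, against 13.4% of all genes, with the lowest ratios for Col11a1 (68.5 and 19.9 CPM) and Col5a1 (1758 and 770 CPM). In lining cells 4 of 10 were lower, against 10.2%, led by Lox (92.5 and 14.1 CPM) and Col3a1 (3231 and 1220 CPM). In osteoblasts 3 of 10 were lower, against 17.6%, led by Col3a1 (2920 and 1068 CPM) and Loxl1 (72.6 and 26.0 CPM). In marrow stromal cells 4 of 10 were lower, against 15.2%, led by Col2a1 (450 and 86.9 CPM) and Col11a1 (571 and 245 CPM). With centring, Col1a1 (-0.99) and Col5a1 (-0.97) were no longer past 2-fold there, nor was Col5a1 in osteoblasts (-0.84). The other lower calls of this list stayed past it. In chondrocytes none was at least 2-fold lower, against 6.63%, and Lox was higher, with 31.7 and 69.5 CPM (1 of 10, against 4.57%). In osteoblasts Col2a1 was higher (415 and 1391 CPM), and no other gene of the list was at least 2-fold higher in any set. Cells above 0 for both Sox9 and Col2a1 were kept out of the gated sets, so the Col2a1 levels there are those left by that rule. The lists were described by counts, with no test.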

How the data were processed

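Knee cells of 1 control and 1 Stat3KO pool were measured by droplet 3′ sequencing. Per the study's methods and the labels, the authors aligned reads to mm10 with STAR 2.7.3a in Partek Flow, removed duplicate UMIs, counted on Gencode M25 and corrected ambient RNA with SoupX, with R 4.0.3 named in the submitters' processing notes. Ambient correction can lower values of abundant genes in cells that do not express them.

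Gene values were deposited on a log2 scale, as log2(CPM + 1) of each cell. Each cell's total is an estimated count that was also deposited, beside its mitochondrial and ribosomal percent, computed by the authors, and a deposited score, the number of expressed genes. Of the control values above 0, 74.9% were within 0.1 of a whole UMI after back-calculation, and 97.3% of the Stat3KO values.

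Estimated UMIs were recovered from each value and the cell's total, summed over the cells of a set and library, and divided by their sum (CPM). Ratios are log2((Stat3KO CPM + 1)/(control CPM + 1)). A ratio was called at 2-fold with at least 10 CPM in either library. A marker counted as present at 0.5 estimated UMIs. With 1 library per group no test or p-value was computed. Shares carry exact (Clopper-Pearson) 95% binomial intervals, which cover counting error only, and a share of 0 is read against 3 counts of the total. All cells in the tables were used, no doublet caller was run, and cells holding at least 2 markers of another list were left out as an alternative. Cells above 5% mitochondrial transcripts (694 control, 492 Stat3KO) were kept, and no cell was above 24000 counts. The ratio and thinning calculations were tested on simulated data. Alternatives covered 14 settings of gates, cell weights, pseudocount, minimum, cell filters, globin, mixed cells, centring, thinning, chondrocyte definition and dominant cells. Python 3.11.15, numpy 2.4.6, scipy 1.17.1, pandas 2.3.3 and matplotlib 3.10.9 were used.

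The 10 genes, the marker and gene lists and the settings were chosen with earlier results of these data known. Named were the 10 members, the 8 other family genes, the 3 most alike genes per member (1 of them is not reported here), and, from the other lists, the counts past 2-fold and the 2 highest and 2 lowest ratios of a set, of which those past 2-fold are given. Other list genes given for their highest level were chosen after their values were seen. Positions were read from the Gencode M21 annotation (GRCm38), which describes the mm10 assembly in an earlier release than M25.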

Additional observations from a re-analysis of the deposited data

Results flagged for a closer look

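Gene and set pairs that differed by at least 2-fold in opposite directions between the libraries were looked at again, and neither of these contrasts was tested. Kera had a log2 ratio of 1.06 in fibroblasts and -2.84 in chondrocytes, both from at most 6 cells above 0 per library. Omd had a log2 ratio of 1.97 in chondrocytes and 1.77 in tendon cells but -1.003 in fibroblasts, where 27 control and 11 Stat3KO estimated UMIs were compared and 7 of 13 alternatives stayed past 2-fold.

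Mural cells, the contractile cells around vessels (Rgs5, Myh11, Notch3, Abcc9, Higd1b), were outside the comparisons and held SLRP transcripts in more cells than erythroid cells did, with exact 95% intervals that did not overlap (counting error only). Of 66 control mural cells, at a median of 1921 UMIs, 78.8% were above 0 for Bgn, 66.7% for Aspn, 9.09% for Ogn and 16.7% each for Dcn, Fmod and Prelp. The Dcn level there, 50.5 CPM from 7.12 estimated UMIs in 11 cells, was close to 45.7 CPM in control erythroid cells. Fmod was at 56.8 CPM, Prelp at 91.7 CPM and Ogn at 55.8 CPM, against 25.4, 15.0 and 8.43 CPM in erythroid cells. After thinning, none of 65 control mural cells was above 0 for Ogn, which allows a share of up to 4.62%. Of 41 Stat3KO mural cells, at a median of 3981 UMIs, 70.7% were above 0 for Bgn and 78.0% for Aspn. The erythroid shares ran from 0.312% to 6.74% of 1602 control cells at a median of 5855 UMIs, and from 0% to 7.89% of 38 Stat3KO cells at a median of 1340 UMIs. Aspn reached 516 CPM in control and 565 CPM in Stat3KO mural cells, a level near that of tendon cells (577 and 806 CPM), and Bgn 1006 and 1072 CPM. In Stat3KO mural cells the remaining genes had intervals that overlapped those of erythroid cells.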

How the results depend on the processing

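No paired analysis was possible because the labels carry no replicate numbers and each group has 1 library. The count of genes with the same highest set (7) ranged from 6 to 9, and the median ratios from -0.50 to -0.11 in chondrocytes and from -0.33 to -0.02 over the gated sets, all of 1 sign under the 14 alternatives. The 3 ratios at least 2-fold higher became 7 with at least 3 of the 5 markers, 5 each with no minimum, without mixed cells, with centred ratios and with thinning to 1000 UMIs, and 1 without the 3 top cells of the gene. The 9 lower ratios became 5 with a pseudocount of 10 and with centred ratios, and 14 with no minimum and without the 3 top cells. The cause was not tested. Of the 12 ratios past 2-fold, 2 turned sign: Fmod in fibroblasts was at 0.16 in cells without globin, and Lum in lining cells at 0.0026 without mixed cells.

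Leaving out the 3 top cells moved 21 of 49 ratios by at least 0.25, and leaving out mixed cells 23 of 49. The smallest sets held 61 (Stat3KO tendon) and 63 (Stat3KO lining) cells, and whether set size bears on these moves was not tested.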

Other observations

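After thinning to 1000 UMIs, no tendon cell or fibroblast of either library lacked all 10 genes, which allows shares of up to 0.929% and 1.28% in the control and 5.0% and 3.19% in Stat3KO. Of osteoblasts, 6.34% of control and 8.89% of Stat3KO cells lacked all 10, as did 5.45% and 12.6% of marrow stromal cells and 5.93% and 14.8% of lining cells. In chondrocytes the share was 0.816% in control (4 of 490 cells) and 4.38% in Stat3KO (14 of 320 cells). Erythroid cells lacked all 10 in 94.2% of control cells.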
